A study of Mus musculus with 3 samples.

Results

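The miR-181 family was examined in the small RNA of extracellular vesicles (EVs) from the testis of postnatal day 7 (PND7) C57/BL6 male mice. The members were all entries of the catalogues whose name is miR-181a, b, c or d with an arm, counted as mature or as hairpin. Of 805 miRNA identifiers with a mature or hairpin entry in any library, 7 belonged to the family, and each of the 7 had both types of entry, giving 14 entries. Replicates 2 and 3 listed all 14 and replicate 1 listed 13. The catalogues name them with the mouse prefix, as in mmu-miR-181a-5p, mmu-miR-181b-5p, mmu-miR-181c-5p and mmu-miR-181d-5p. The family was chosen by its mature and hairpin read counts in these libraries, so levels, orders and ratios are given as a description, without a test.

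The study sequenced 3 libraries, and each came from EVs prepared from 10 mice. Testes were freed of the tunica albuginea and dissociated with Accumax, EVs were collected from the supernatant, and the preparations were treated with proteinase K, PMSF and RNase A before RNA extraction. The sample titles carry the word treated, but all 3 libraries are of this one kind and there was no untreated or older group. The EVs came from the whole testis, so the cells that released them are not identified by these counts, and fewer EVs from a cell type cannot be told apart from less of a miRNA per EV. The libraries held 25716952 to 27939308 clean reads, of which 870967 to 1005836 were counted on mature miRNAs and 493345 to 612122 on hairpin entries.

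A miRNA is cut from a hairpin-shaped precursor by Drosha and Dicer, and either arm of the stem, 5p or 3p, can be loaded into an Argonaute protein. The loaded strand recognises messenger RNAs mainly through its seed, bases 2 to 8 from the 5′ end, and lowers their translation and stability. The miR-181 family is best known for setting the strength of antigen receptor signalling in developing T cells, and its members are also found in brain, muscle, endothelium and testis.

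The mature sequences of the 4 members of the 5p arm are shown because the whole group shares 1 seed, printed in capitals. All 4 thus have the same seed match in a target RNA. Whether their counts add up on targets was not tested. The sequences are from RefSeq for GRCm38.p6, 5′ to 3′.
miR-181a-5p: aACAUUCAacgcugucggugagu
miR-181b-5p: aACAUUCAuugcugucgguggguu
miR-181c-5p: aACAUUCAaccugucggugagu
miR-181d-5p: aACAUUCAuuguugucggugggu
The match to this seed in a target RNA reads UGAAUGU. Among 1679 mature mouse sequences in the RefSeq table, no other miRNA had these letters at bases 2 to 8, or at bases 2 to 7. By sequence the members fall into pairs. miR-181c-5p lacks 1 base of miR-181a-5p, the G at position 11 counted from the 5′ end, and is otherwise identical to it. miR-181d-5p differs from miR-181b-5p by C12U and by the loss of 1 U at the 3′ end. Between the pairs, miR-181b-5p differs from miR-181a-5p by A9U, C10U, A21G and 1 added U, which is 4 edits, and miR-181d-5p is 5 edits from miR-181c-5p. How many mismatches the mapping allowed is not given in the sources used here. Reads of miR-181a-5p and miR-181c-5p, a single base apart, may thus have been exchanged in the counts. So may reads of miR-181b-5p and miR-181d-5p, which differ by C12U and 1 U at the 3′ end.

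The 3p arms do not share this seed, and those found in the libraries are shown because each is encoded at 1 locus only, whereas miR-181a-5p is encoded at a pair of loci.
miR-181a-1-3p: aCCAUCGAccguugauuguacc
miR-181a-2-3p: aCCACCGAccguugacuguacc
miR-181c-3p: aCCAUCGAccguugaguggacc
From miR-181a-1-3p, miR-181a-2-3p differs by U5C and U16C, so that their seeds differ. miR-181c-3p differs from miR-181a-1-3p by U16G and U19G and keeps its seed.

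The family is encoded by 6 genes at 3 loci, each with a hairpin of the a or c kind followed by a hairpin of the b or d kind. In the GENCODE annotation of GRCm38, Mir181a-1 lies on the plus strand of chromosome 1 from 137966455 to 137966541, followed after 97 bases by Mir181b-1 from 137966639 to 137966718. Both lie in an intron of 1 of the 2 annotated transcripts of the non-coding gene Gm4258, on the same strand. An exon of the lincRNA A430106G13Rik overlaps 11 bases of Mir181a-1 and all 80 bases of Mir181b-1. Mir181a-2 lies on the plus strand of chromosome 2 from 38852735 to 38852810, followed after 1019 bases by Mir181b-2 from 38853830 to 38853918. Both lie within an intron of 3 of the 11 annotated transcripts of Nr6a1, on the opposite strand to it. All 89 bases of Mir181b-2 also overlap an exon of Gm44144, again on the opposite strand. Nr6a1 encodes germ cell nuclear factor, an orphan nuclear receptor. On the minus strand of chromosome 8, Mir181c lies from 84178873 to 84178961 and Mir181d from 84178716 to 84178787, 85 bases apart. Both lie in an intron of 1 of the 3 annotated transcripts of Nanos3, on the same strand. Nanos3 encodes an RNA-binding protein that germ cells need for their survival. The counts do not say whether these host genes were transcribed.

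**Figure D1:**
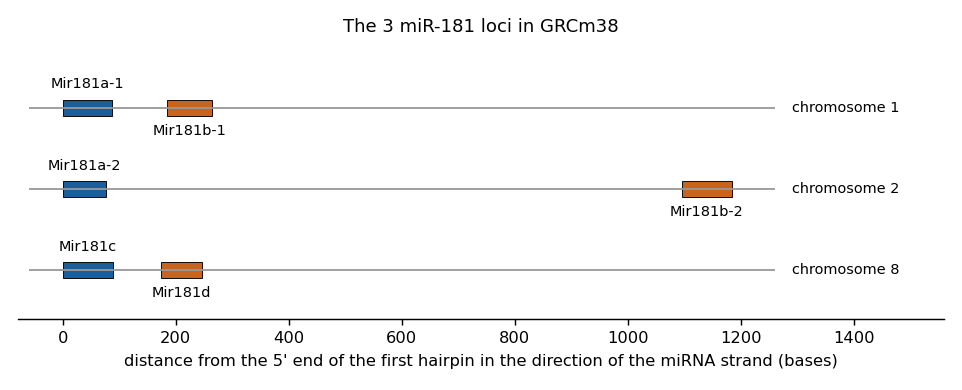
Map of the 3 miR-181 loci of the mouse, with distance in bases from the 5′ end of the first hairpin along the x axis, drawn in the direction of the miRNA strand. Blue boxes are the first and orange boxes the second hairpin of each locus, and the gap is 97 bases on chromosome 1, 1019 on chromosome 2 and 85 on chromosome 8.

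Mature miR-181 was abundant in PND7 testis EVs and consisted almost wholly of miR-181a-5p. The family held 6.41%, 5.53% and 5.50% of the mature miRNA counts in replicates 1, 2 and 3, on average 5.81% ± 0.514 (SD, n = 3). Levels are given as CPM, the count of an entry divided by the total of its entry type in the library and multiplied by 1000000. miR-181a-5p had 60327 CPM in replicate 1, 49996 in replicate 2 and 51212 in replicate 3, and it ranked 3rd of the 604 mature entries in each library. Replicate 1 was the highest and the other two were close together.

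The other 5p members were lower by more than an order of magnitude. miR-181c-5p had 2021, 2501 and 1721 CPM in replicates 1, 2 and 3, with a mean of 2081 ± 394 (SD, n = 3) and rank 47. miR-181d-5p had 890, 1517 and 1181 CPM, with a mean of 1196 ± 314 and rank 64. miR-181b-5p had 719, 1031 and 732 CPM, with a mean of 827 ± 177 and rank 78. Replicate 2 was the highest library for each of these 3 members and the lowest for miR-181a-5p. The order a, c, d, b was the same in every library. The ranges of miR-181c-5p and miR-181d-5p over the libraries did not overlap, whereas those of miR-181d-5p and miR-181b-5p did.

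miR-181a-5p held 94.3%, 90.8% and 93.4% of the 5p mature counts of the family in replicates 1, 2 and 3. It exceeded miR-181b-5p, its neighbour at both the chromosome 1 and the chromosome 2 locus, by 83.9-fold in replicate 1, 48.5-fold in replicate 2 and 70.0-fold in replicate 3. The mean log2 ratio was 6.04 ± 0.40 (SD, n = 3). The members of the chromosome 8 locus were much closer to each other. There, miR-181c-5p exceeded miR-181d-5p by 2.27-fold, 1.65-fold and 1.46-fold, a mean log2 ratio of 0.82 ± 0.33 (SD, n = 3).

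**Figure D2:**
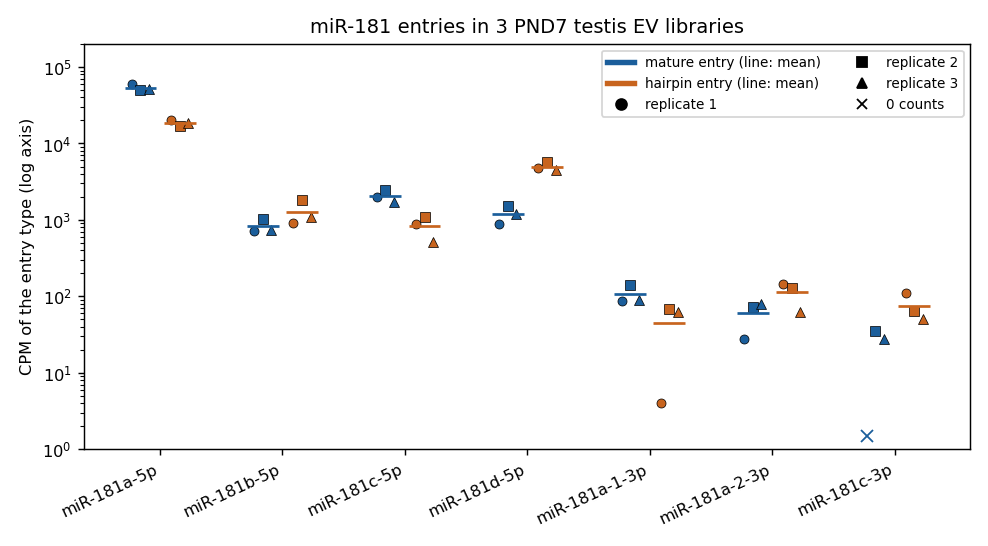
Levels of the 7 miR-181 identifiers, in CPM of the entry type on a log axis, for mature (blue) and hairpin (orange) entries; each symbol is a library, lines are means of entries present in every library, and the cross, drawn at the foot of the plot, marks the library with 0 counts. Mature miR-181a-5p lies near 53845 CPM, far above the other members, and only miR-181d-5p among the 5p members has hairpin values far above its mature values.

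The hairpin entries gave another picture of the same paralogs. The sources used here do not define this type, which the authors list beside the mature one under the same name, and each read is in a single class. CPM values of the 2 types have different totals, so counts are compared here. miR-181a-5p had 9952, 10213 and 10854 hairpin counts against 52543, 50288 and 49495 mature counts in replicates 1, 2 and 3. miR-181c-5p had 439, 668 and 300 hairpin against 1760, 2516 and 1663 mature counts. For both, the mature entry was the larger in every library, with log2 ratios of hairpin to mature counts of -2.30 ± 0.11 and -2.13 ± 0.30 (SD, n = 3 each).

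miR-181b-5p was divided almost evenly. It had 446, 1131 and 625 hairpin counts and 626, 1037 and 707 mature counts, a log2 ratio of -0.18 ± 0.31 (SD, n = 3) whose sign differed between libraries. Unlike miR-181a-5p, miR-181b-5p and miR-181c-5p, miR-181d-5p had more hairpin than mature counts in every library. It had 2343, 3475 and 2593 hairpin counts against 775, 1526 and 1141 mature counts. Its log2 ratio was 1.32 ± 0.24 (SD, n = 3), and the mature entry held 24.9% of its counts in replicate 1, 30.5% in replicate 2 and 30.6% in replicate 3.

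In every library the ratios of miR-181a-5p and miR-181c-5p, from -2.47 to -1.91, thus lay below those of miR-181b-5p and miR-181d-5p, from -0.49 to 1.60. The libraries repeat the same members, so this describes these 4 members only. The a and c members are alike in sequence and also lie first at their loci, so that sequence and position cannot be told apart here. Over the 221 miRNAs that reached 10 counts in both entries of each library, the median log2 ratio was -0.27, with quartiles at -1.41 and 0.85. Of these miRNAs, 20 were lower than miR-181a-5p and 26 lower than miR-181c-5p, whereas 37 were higher than miR-181d-5p. miR-181b-5p lay near the middle, with 118 lower and 102 higher.

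**Figure D3:**
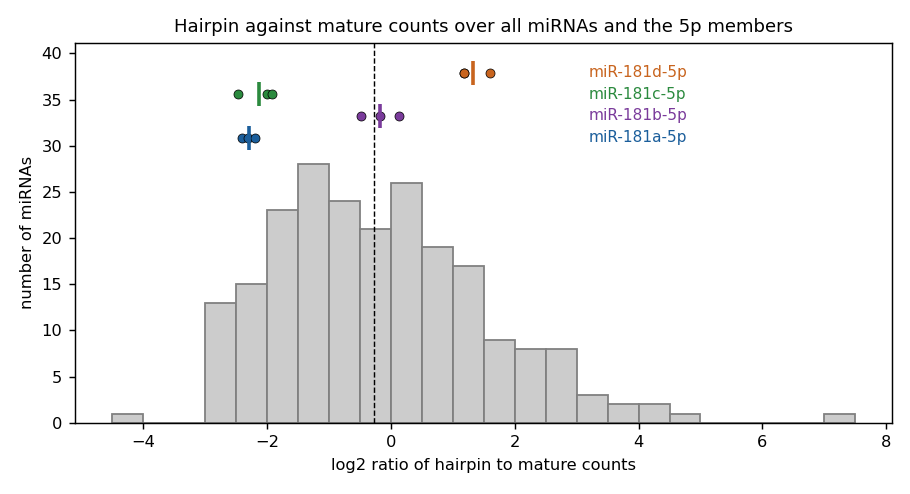
Log2 ratio of hairpin to mature counts (x axis) of 221 miRNAs, as the number of miRNAs per bin of the mean over libraries (grey), with the 3 libraries (dots) and mean (bar) of each 5p member above and the median of all miRNAs, -0.27, as a dashed line. miR-181a-5p and miR-181c-5p lie to the left of the median, miR-181d-5p to the right and miR-181b-5p around it.

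Because of this, the order within the chromosome 8 pair depended on the type of entry. miR-181c-5p held 69.4% of the mature counts of the pair in replicate 1 (exact binomial 95% confidence interval 67.6% to 71.2%), 62.2% in replicate 2 (60.7% to 63.7%) and 59.3% in replicate 3 (57.5% to 61.1%). It held 15.8% of the hairpin counts of the pair in replicate 1 (14.4% to 17.2%), 16.1% in replicate 2 (15.0% to 17.3%) and 10.4% in replicate 3 (9.28% to 11.5%). Without molecular identifiers in use, these intervals express the error of counting alone and not that of amplification. With both types summed, miR-181d-5p was the larger in each library, with 3118, 5001 and 3734 counts against 2199, 3184 and 1963 for miR-181c-5p.

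The Mir181d hairpin is shown because its reads were listed mostly as hairpin, beside that of Mir181a-1, one of the genes that encode miR-181a-5p, whose counts were mostly mature and cannot be divided between its loci. Capitals mark the 5p and the 3p arm as RefSeq places them.
Mir181d: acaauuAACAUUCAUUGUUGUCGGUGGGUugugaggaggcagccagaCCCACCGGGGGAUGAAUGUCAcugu
Mir181a-1: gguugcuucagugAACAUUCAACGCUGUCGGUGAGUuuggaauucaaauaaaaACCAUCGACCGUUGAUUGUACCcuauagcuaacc
The Mir181d hairpin has 72 bases, of which 18 lie between the arms, and that of Mir181a-1 has 87, with 17 between the arms. The catalogues give only a count for each entry, so where the hairpin reads start and end on these sequences was not tested.

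The order of miR-181a-5p over miR-181b-5p held in both types, but it was smaller in the hairpin entries, at 22.3-fold, 9.03-fold and 17.4-fold in replicates 1, 2 and 3. Over the hairpin entries of the 5p arm, miR-181a-5p held 72.3% ± 5.52, miR-181d-5p 19.4% ± 2.62, miR-181b-5p 5.01% ± 2.04 and miR-181c-5p 3.24% ± 1.12 (SD, n = 3 each). The first pair of these did not overlap any other member in any library. The shares of miR-181b-5p and miR-181c-5p overlapped between libraries, and that of miR-181b-5p was the higher in every library, by the least in replicate 1 with 3.38% against 3.33%.

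**Figure D4:**
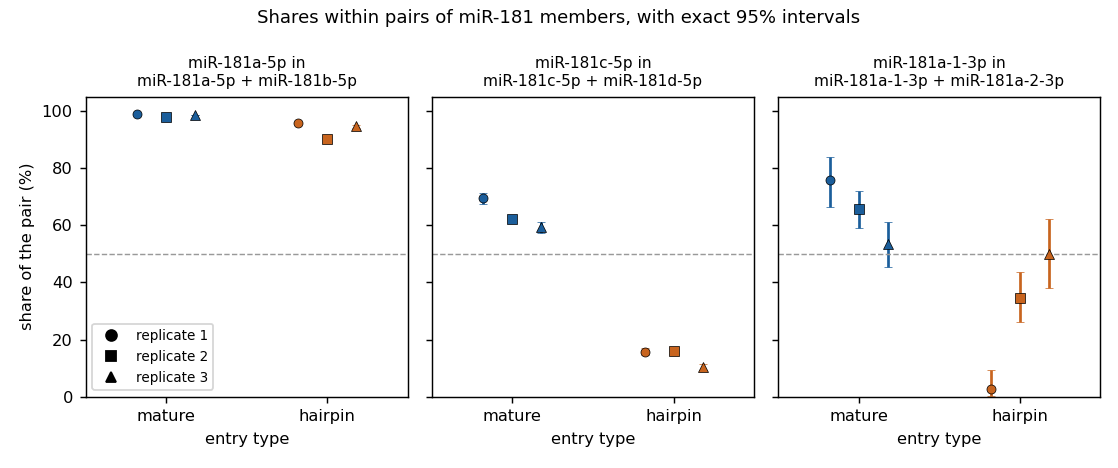
Share of the first member in 3 pairs of miR-181 members (y axis, in percent of the counts of the pair), by type of entry and library, with exact binomial 95% confidence intervals and a dashed line at equal counts. The share of miR-181c-5p is above the line in the mature entries of all 3 libraries and below it in their hairpin entries, while that of miR-181a-5p stays near the top in both.

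Summed over the family, where miR-181a-5p outweighs the other members, hairpin entries made up a smaller share of the counts than over all miRNAs. They held 2.70%, 2.56% and 2.51% of all hairpin counts in replicates 1, 2 and 3, against the 5.81% ± 0.514 of the mature counts given above. A further form was the Rfam family of mir-181 precursors, a separate entry for reads that the authors placed with a covariance model and not with the miRBase names. It had 7100, 11427 and 7478 counts and held 6.11% ± 1.12 (SD, n = 3) of the precursor counts, and replicate 2 was again the highest. Of all counts on miR-181, 70.4% ± 3.00 were mature, 18.5% ± 0.955 hairpin and 11.0% ± 2.44 in the Rfam entry. Over all miRNAs these shares were 57.5% ± 1.12, 34.0% ± 0.607 and 8.53% ± 0.519 (SD, n = 3 each). All miR-181 forms together held 0.296%, 0.318% and 0.269% of the clean reads.

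The 3p arms, the partner strands of the hairpins, were scarce. Summed over the family, they had 100, 252 and 192 mature counts against 55704, 55367 and 53006 for the 5p arms, a ratio of 557 in replicate 1, 220 in replicate 2 and 276 in replicate 3. The mean log2 ratio was 8.34 ± 0.70 (SD, n = 3). Another 38 hairpins reached 10 mature counts on both arms in each library. Their log2 ratio of the larger to the smaller arm had a median of 3.41, and it was below the family's value for 36 of them. Each of the 38 is a single hairpin, whereas the family's value is a sum in which miR-181a-5p outweighs the other members. Hairpins with a partner arm too rare to be counted are not among these 38.

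The 3p arms of the a and c members were the ones found. miR-181a-1-3p, from chromosome 1, had 76, 142 and 88 mature counts, or 87.3, 141 and 91.1 CPM, in replicates 1, 2 and 3. miR-181a-2-3p, from chromosome 2, had 24, 74 and 77 counts, or 27.6, 73.6 and 79.7 CPM. miR-181c-3p had 36 and 27 mature counts in replicates 2 and 3 and 0 in replicate 1, where a floor of 3 counts corresponds to 3.44 CPM and the exact two-sided 95% limit to 4.24 CPM. Its hairpin entry had 54, 39 and 29 counts and was the highest in replicate 1. The name was thus listed in all 3 libraries, but in replicate 1 only as hairpin. Since that type is not defined, presence of the 3p strand itself in replicate 1 was not tested. The 3p arms of Mir181b-1, Mir181b-2 and Mir181d were not listed in any library, as mature or as hairpin. The floor of 3 counts corresponds to 3.44 CPM of the mature counts and 6.08 CPM of the hairpin counts in replicate 1, and to less in the others.

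Since miR-181a-5p is identical from both loci, its 3p partners are the entries that tell the loci apart. They are scarce strands that differ in sequence, and how far their counts follow the output of each locus was not tested. In the mature entries, miR-181a-1-3p held 76.0% of the pair in replicate 1 (exact binomial 95% confidence interval 66.4% to 84.0%), 65.7% in replicate 2 (59.0% to 72.0%) and 53.3% in replicate 3 (45.4% to 61.1%). In replicate 3 the interval included equal counts. In the hairpin entries miR-181a-1-3p was the lower in replicate 1, with 2 counts against 72 of miR-181a-2-3p, and in replicate 2, with 42 against 80. The hairpin counts were equal in replicate 3, with 36 against 36. The share of miR-181a-1-3p in replicate 1 was 2.70% (0.329% to 9.42%). The mean log2 ratio of the hairpin entries was -2.03 ± 2.76 (SD, n = 3) and -0.46 without replicate 1. With both types summed the mean log2 ratio of miR-181a-1-3p to miR-181a-2-3p was 0.030, so these counts gave no stable order of the loci.

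Between libraries, mature miR-181a-5p varied the least of the 5p members. The highest library exceeded the lowest by 1.21-fold for mature miR-181a-5p, 1.43-fold for miR-181b-5p, 1.45-fold for miR-181c-5p and 1.71-fold for miR-181d-5p. The median of this ratio was 1.73 over 272 mature miRNAs that reached 10 counts in each of the libraries, and 23 miRNAs had a smaller value than miR-181a-5p, while 131 had a smaller value than miR-181d-5p, which lay near the median. In the hairpin entries the ratio was 1.21 for miR-181a-5p, 1.26 for miR-181d-5p, 2.04 for miR-181b-5p and 2.10 for miR-181c-5p, so that the last pair differed more between libraries as hairpin than as mature entries. miRNAs with more counts also have less counting error. As a check for a library deposited more than once, the counts of the 272 miRNAs were compared between each pair of libraries, and the chi-square divided by its degrees of freedom was 96.6 to 187, far above sampling noise.

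**Figure D5:**
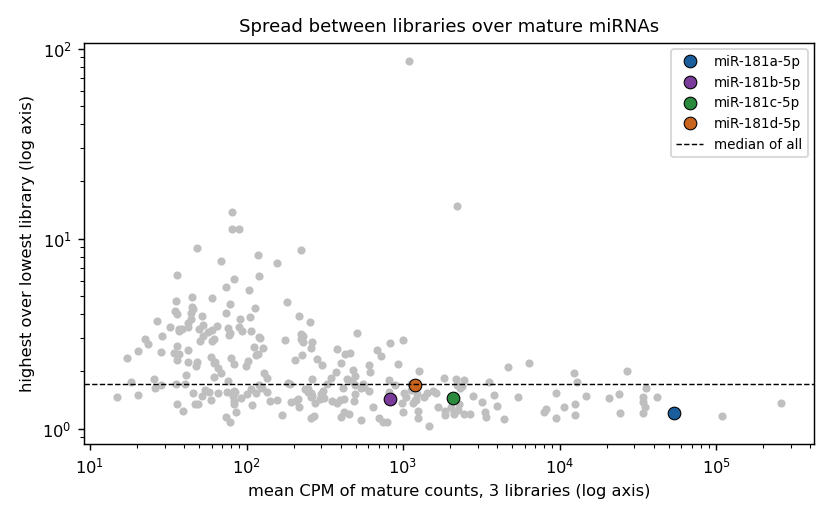
Highest over lowest library (y axis, log scale) against mean CPM of mature counts (x axis, log scale) for 272 mature miRNAs (grey), with the 5p members of miR-181 in colour and the median of all, 1.73, as a dashed line. The 4 members lie at or below the median, and miR-181a-5p is among the most abundant miRNAs plotted.

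Other mature miRNAs were compared with each 5p member by the largest absolute difference in log2 CPM over the 3 libraries, among 271 candidates. The nearest to miR-181a-5p was miR-26a-5p, at 0.91, followed by miR-99a-5p and miR-411-5p, both at 0.93. In the ranking by mean CPM, miR-181a-5p stood between let-7c-5p, which was higher in all 3 libraries, and miR-26a-5p, with 41856 ± 8521 CPM (SD, n = 3), which was lower in all 3. The nearest to miR-181c-5p were miR-30c-5p, miR-10b-5p and miR-154-5p, at 0.20, 0.23 and 0.24. For miR-181d-5p they were miR-6538, miR-369-5p and miR-503-3p, at 0.16, 0.27 and 0.33, and for miR-181b-5p they were miR-125a-5p, miR-676-3p and miR-214-3p, at 0.41, 0.42 and 0.43. No member of the family was among the nearest to another. This difference compares levels, so members of unlike abundance lie apart whether or not they change together between libraries. The neighbours of miR-181b-5p, miR-181c-5p and miR-181d-5p in rank were each higher in some libraries and lower in others.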

How the data were processed

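Small RNA was measured in 3 EV preparations of PND7 testis on the BGISEQ-500 platform. Bowtie2 and cmsearch served the authors for placing the filtered reads on mm10 and on collections of known small RNAs, and each read went to 1 class by an order of priority that begins with miRBase. They deposited whole-number read counts for each small RNA and class, without normalization. A deposited column headed as molecular identifiers was not used. Versions, allowed mismatches and the definition of the hairpin type are not given in the sources used here.

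From these counts, CPM were computed within the mature or hairpin total of each library. Values are mean and SD over libraries. Members were chosen with earlier results of these data known, and no test between members was run: an exact sign-flip test over 3 libraries cannot go below 0.25. Intervals are exact binomial (Clopper-Pearson, 95%). The ratio arithmetic was tested on simulated data. All 10 mature names of the family and 5 of its 6 hairpins, all but Mir181c, were found in the RefSeq table for GRCm38.p6, and loci came from GENCODE vM21 for GRCm38, the assembly that mm10 names. Named beside the members were only the Rfam mir-181 entry, rank neighbours, and the 3 entries nearest in level to each 5p member. The last were taken among entries that reached 10 counts in each library. A ranking of seeds by summed counts was void, because only 442 of 604 mature entries (73.2%) had a sequence, although these held 95.9% to 96.3% of the mature counts. Alternatives changed the denominator, entry types, arms, pseudocount, count minimum, seed, pooling and the replicates used. Scripts ran under Python 3.11.15 with SciPy 1.17.1, numpy 2.4.6 and pandas 2.3.3, and figures were drawn with matplotlib 3.10.9.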

Additional observations from a re-analysis of the deposited data

How the results depend on the processing

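The entry type was the choice on which most depended. With hairpin entries only, the log2 ratio of miR-181c-5p to miR-181d-5p reversed from 0.82 to -2.64, and with both types summed to -0.69. The log2 ratio of miR-181a-1-3p to miR-181a-2-3p went from 0.93 to -2.03 with hairpin entries and to 0.030 with both summed. The log2 ratio of miR-181a-5p to miR-181b-5p fell from 6.04 to 3.92 and 5.39, the share of miR-181a-5p from 92.8% to 72.3% and 88.6%, and the log2 ratio of 5p to 3p arms from 8.34 to 6.81 with hairpin entries. The family held 4.62% of mature and hairpin counts summed. Adding the Rfam entry to the hairpin counts moved the log2 ratio of hairpin to mature counts from -1.93 to -1.26. Larger denominators lower shares by construction: of all annotated small RNA reads, mature entries held 0.585% and the hairpin entries 0.154%, and of the clean reads 0.207% and 0.0546%. Leaving the void ranking of seeds aside, the other 16 of 31 such alternatives moved a value by no more than the SD between libraries. Leaving out each replicate in turn cannot move a mean of 3 by more than this SD, so only the ranges are given. The share of mature counts ranged from 5.52% to 5.97% and the log2 ratio of miR-181c-5p to miR-181d-5p from 0.63 to 0.95. Of the single entries, mature miR-181c-3p, absent from replicate 1, moved most in proportion, from 21.2 CPM to 31.9 without replicate 1 and 14.0 without replicate 2. Depth limits the 3p arms, which had 252 mature counts at most. No paired analysis was possible because the study has a single group.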
